A study of Mus musculus with 6 samples.

Results

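The genes described here are 10 regulators and feedback genes of the ATF4-CHOP branch of the integrated stress response, Atf4, Atf5, Atf3, Ddit3, Trib3, Chac1, Sesn2, Ddit4, Ppp1r15a and Eif4ebp1. They were chosen by symbol, with earlier results of these data known. All 10 were found among the 35976 symbols of the count table and among the 10636 genes that passed the filter on low counts. The libraries came from RAW264.7, a mouse line with macrophage properties. In 3 libraries the cells had been exposed to itaconate for 24 h, and in 3 control libraries they had received no treatment. Itaconate, a dicarboxylate, is formed from cis-aconitate in activated macrophages. Its dose, its chemical form and any vehicle are absent from the labels, as is whether replicate libraries stemmed from independent cultures. The p-values therefore measure the spread between these libraries, which may be technical. Transcripts were counted by sequencing near their 3′ ends.

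In the integrated stress response, kinases that sense amino acid shortage, heme shortage or mitochondrial stress, double-stranded RNA or a loaded endoplasmic reticulum (ER) phosphorylate the initiation factor eIF2. Most translation then slows, while the mRNA of the transcription factor ATF4 is translated more, so that much of the control of ATF4 lies outside its transcript level. ATF4 induces the genes of the factors ATF3, ATF5 and CHOP (Ddit3), and of proteins that damp the response or slow growth, which gives the pathway its feedback. Transcript counts such as these do not measure eIF2 phosphorylation or ATF4 protein.

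The libraries held 5202626 to 6098934 counts. Levels are given as CPM, counts relative to library size with scaling by the trimmed mean of M-values, and the floor of 3 counts corresponded to 0.487 to 0.565 CPM, for counting error alone. All 10 macrophage markers checked were detected, with a summed level of 7681 to 7919 CPM in itaconate libraries and 9564 to 10947 CPM in control libraries. Of these markers, Cd68 rose (0.30 on the log2 scale, chosen after its values were seen) and 5 fell, among them the M-CSF receptor gene Csf1r (log2 fold change -1.01 ± 0.07, SE), the lipopolysaccharide co-receptor gene Cd14 (-0.96 ± 0.08) and the integrin gene Itgam (-0.54 ± 0.12). Over all genes tested, 10.7% were called higher and 11.2% lower (edgeR, adjusted p under 0.05). Markers of epithelium, fibroblasts, B cells, granulocytes (neutrophils and mast cells) and T or NK cells summed, list by list, to at most 2.85 CPM in any library, and 16 of these 26 genes had no count at all. From such bulk libraries, a change in the number of cells with a transcript and a change in its amount per cell cannot be told apart. Mitochondrial genes took 5.04% ± 0.375 of counts in itaconate libraries and 4.81% ± 0.444 in control libraries (n = 3, SD; p = 0.5 in an exact two-sided permutation test). Of 3 tested nuclear-retained transcripts 1 was called, and Neat1 (-0.02 ± 0.08) and Kcnq1ot1 (-0.27 ± 0.12, unadjusted p = 0.0326) were not (chosen after their values were seen). Malat1 was higher by 0.27 ± 0.08 (edgeR adjusted p = 0.0134) with overlapping libraries, and its call was lost with library totals (adjusted p = 0.121) and when control replicate 2 (0.0568) or itaconate replicate 1 (0.11) or 2 (0.0928) was left out. The part of these shifts in the results was not tested.

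Itaconate-exposed cells had more transcript of 7 of the 10 genes. Trib3, Atf5, Ddit3, Eif4ebp1, Chac1, Ppp1r15a and Atf4 rose, by 1.37-fold for Atf4 up to 2.96-fold for Trib3, while Sesn2, Ddit4 and Atf3 did not pass the test (edgeR, adjusted p under 0.05). Among all genes tested, 10.7% were called higher, 11.2% lower and 21.9% in either direction. No member was called lower, none was lower at an unadjusted p under 0.05, and DESeq2 and limma-voom also called 0 lower. At an unadjusted p under 0.05, 8 were higher. The share of all tested genes at that unadjusted threshold was not counted, here or for the lists below. For 8 of the 10 genes every itaconate library lay above every control library, a pattern seen in 17.6% of all tested genes, and for the other 2 the groups overlapped. The reverse order, seen in 17.9% of tested genes, was found for none of the 10. The median log2 fold change of the 10 genes was 0.87, against -0.01 for all genes tested. The 10 genes and the lists below were chosen with earlier results of these data known. The contrasts with all genes are therefore descriptive only. Counts of the 10 genes together made up 0.198, 0.203 and 0.221% of the itaconate libraries and 0.123, 0.137 and 0.129% of the control libraries.

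**Figure D1:**
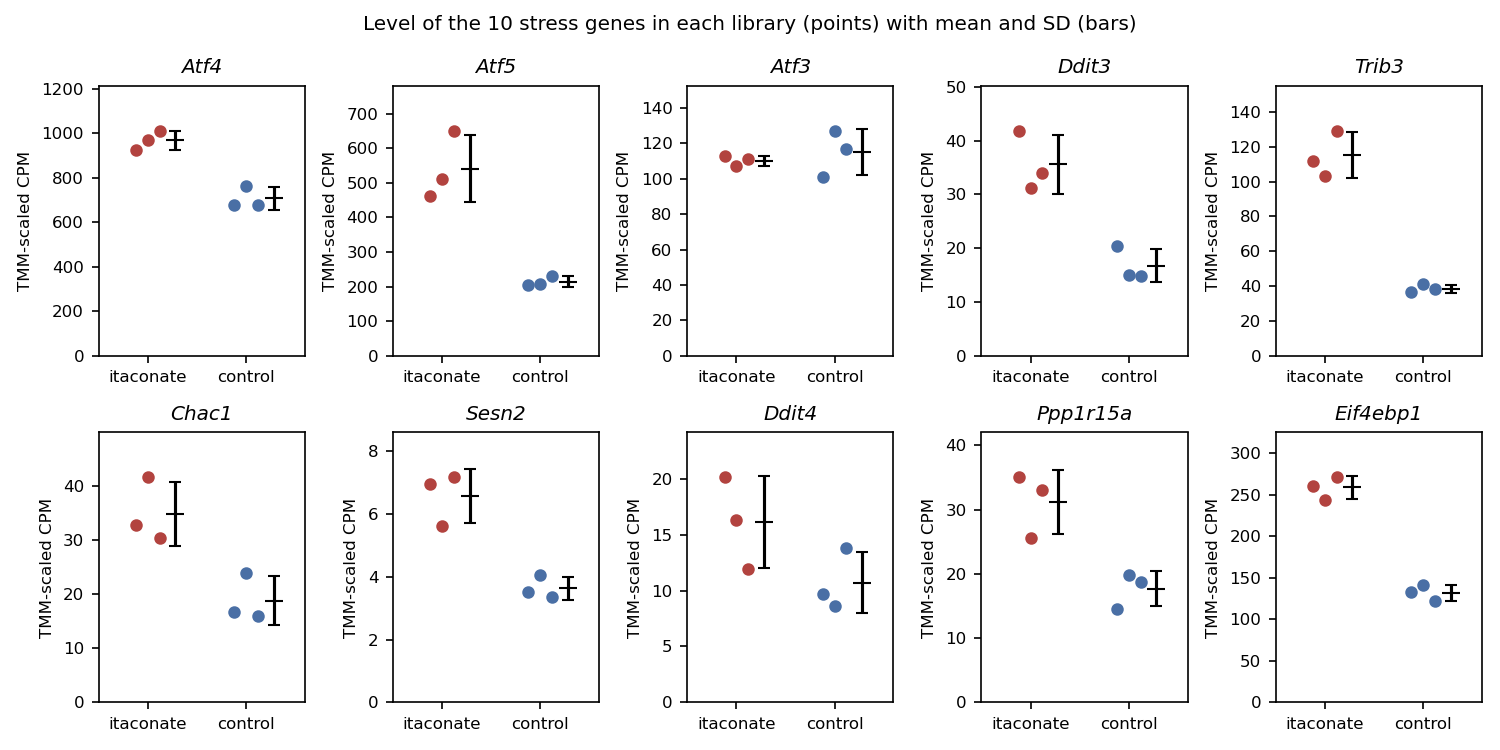
TMM-scaled CPM (y axis, from 0, with a scale of its own in each panel) of the 10 stress genes in 3 itaconate libraries (red, left) and 3 control libraries (blue, right), with mean and SD beside the points. The groups overlap for Atf3 and Ddit4, and for the other 8 genes every itaconate library lies above every control library.

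Among the transcription factors, Atf4 itself moved least of those that rose. Atf4 had 923, 971 and 1010 CPM in itaconate libraries, against 679, 765 and 678 CPM in control libraries. The groups did not overlap, and the lowest itaconate library stood clear of the highest control library. In the edgeR fit the log2 fold change was 0.45 ± 0.08 (SE, 95% interval 0.30 to 0.61, edgeR adjusted p = 7.38e-06). Atf4 lies on chromosome 15 from 80255184 to 80257545 (GRCm38.p6, the assembly that mm10 names). Its exons overlap no other annotated gene.

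Atf5, a close relative of Atf4 whose mRNA is also under upstream reading frame control, rose more. It had 462, 511 and 650 CPM in itaconate libraries and 205, 208 and 232 CPM in control libraries. The control libraries were close together, and itaconate replicate 3 stood highest. This gave a log2 fold change of 1.33 ± 0.10 (95% interval 1.14 to 1.53, edgeR adjusted p = 1.3e-14), and this interval does not meet that of Atf4. Atf5 lies on chromosome 7 from 44812256 to 44816658. It shares 82 exonic bases with Nup62 on the opposite strand, none of them in the last 500 exonic bases, where 3′ reads fall, and Nup62 was not called (0.16 ± 0.10, edgeR adjusted p = 0.3).

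Ddit3 encodes CHOP, a C/EBP family factor that is induced late in the response and is known for promoting cell death under lasting ER stress. It had 41.8, 31.2 and 33.9 CPM in itaconate libraries, against 20.4, 15.1 and 14.9 CPM in control libraries. Levels were low but every itaconate library was above every control library. Its log2 fold change was 1.08 ± 0.21 (95% interval 0.66 to 1.50, edgeR adjusted p = 6.69e-05). Ddit3 lies on chromosome 10 from 127290793 to 127296291, and 68 of its last 500 exonic bases are shared with Mars, a methionyl-tRNA synthetase gene on the opposite strand. Mars had 242 to 322 counts in itaconate libraries and 153 to 309 in control libraries and was not called (0.38 ± 0.17, adjusted p = 0.119). The strand setting of the counting is not given in the sources used here, so reads in the shared stretch cannot be assigned with certainty.

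Atf3, an ATF4 target that encodes a repressor of inflammatory genes in macrophages, was the exception among the 4 factors. It had 113, 107 and 111 CPM in itaconate libraries and 101, 127 and 117 CPM in control libraries. The itaconate values lay within the range of the control values. In the edgeR fit the log2 fold change was -0.06 ± 0.11 (edgeR adjusted p = 0.755), with a 95% interval from -0.29 to 0.16 that ends below the interval of Atf4. Without control replicate 2 the value was 0.02.

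The feedback and growth-control genes formed the rest of the group. Trib3, a pseudokinase gene induced by ATF4 and CHOP whose product holds ATF4 activity back, moved most of the 10. It had 112, 103 and 129 CPM in itaconate libraries, against 36.7, 41.1 and 38.1 CPM in control libraries. The lowest itaconate library was far above all control libraries. This gave a log2 fold change of 1.57 ± 0.13 (95% interval 1.30 to 1.84, edgeR adjusted p = 9.45e-14), and 1.39% of tested genes had a larger value.

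Chac1 encodes an enzyme that degrades glutathione and is an established target of the ATF4 and CHOP branch. It had 32.8, 41.5 and 30.3 CPM in itaconate libraries and 16.6, 23.9 and 15.9 CPM in control libraries. Replicate 2 was the highest library in both groups, and the groups did not overlap. Its log2 fold change was 0.89 ± 0.21 (95% interval 0.47 to 1.31, edgeR adjusted p = 0.00102).

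Ppp1r15a encodes GADD34, which brings the phosphatase PP1 to eIF2 and so restores translation. It had 35.0, 25.6 and 33.0 CPM in itaconate libraries, against 14.6, 19.8 and 18.7 CPM in control libraries. Itaconate replicate 2 came nearest to the control libraries, without reaching them. In the edgeR fit the log2 fold change was 0.82 ± 0.21 (95% interval 0.39 to 1.25, edgeR adjusted p = 0.003). The last 500 exonic bases of Ppp1r15a share 12 with Tulp2 on the opposite strand, which had 0 to 14 counts in itaconate libraries and 1 to 8 in control libraries.

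Eif4ebp1 encodes 4E-BP1, which binds the cap-binding factor eIF4E and blocks initiation when mTORC1 is inactive. It had 261, 244 and 271 CPM in itaconate libraries and 133, 142 and 122 CPM in control libraries. Both groups were tight and well apart. Eif4ebp1 lies on chromosome 8 from 27260327 to 27275656. This gave a log2 fold change of 0.97 ± 0.10 (95% interval 0.78 to 1.16, edgeR adjusted p = 1.14e-11).

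Sesn2 and Ddit4 encode sestrin 2 and REDD1, which both restrain mTORC1, sestrin 2 as a leucine sensor acting on GATOR2 and REDD1 through the TSC complex. Sesn2 had 6.97, 5.61 and 7.17 CPM in itaconate libraries, from 37, 30 and 41 counts, against 3.52, 4.06 and 3.36 CPM in control libraries, from 21, 25 and 18 counts. The groups did not overlap, but the log2 fold change of 0.85 ± 0.47 had a 95% interval from -0.10 to 1.80 and was not called (edgeR adjusted p = 0.214).

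Ddit4 had 20.1, 16.3 and 11.9 CPM in itaconate libraries and 9.71, 8.61 and 13.8 CPM in control libraries. Itaconate replicate 3 lay below control replicate 3, so the groups overlapped. Its log2 fold change was 0.59 ± 0.29 (95% interval 0.01 to 1.17, unadjusted p = 0.0479, edgeR adjusted p = 0.151).

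The 10 genes did not share one ranking of libraries. Among itaconate libraries, replicate 3 was highest for 5 genes, replicate 1 for 4 and replicate 2 for 1, and replicate 2 was lowest for 6. Among control libraries, replicate 2 was highest for 7 genes and lowest for 1.

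Promoter sequence was examined because ATF4 binds, together with C/EBP factors, at elements upstream of its targets. RefSeq windows of 300 bases (GRCm38.p6, from 250 bases before a start to 50 after) were found for 9 of the 10 genes. There were 10 windows in all since Atf5 has 2, of which 1 lies within the gene, away from its outermost start. Eif4ebp1 had no entry. The core of the C/EBP-ATF response element, TGATGNAA on either strand, was in the windows of Trib3, Chac1 and Atf3, and in 3.97% of all 32851 windows. The cyclic AMP response element TGACGTCA was in the window of Ppp1r15a and in 1.79% of all windows. The antioxidant element core TGACNNNGC, on either strand, was in the windows of Sesn2 and Ppp1r15a and in 12.4% of all windows. None of these motifs overlapped another in these windows. The windows of Trib3 (chr2:152344011-152344310, minus strand), Chac1 (chr2:119350992-119351291, plus strand), Atf3 (chr1:191183284-191183583, minus strand) and Ppp1r15a (chr7:45526219-45526518, minus strand) are shown because they hold the ATF-type motifs, beside 3 genes that rose and 1 that did not. Each is written 5′ to 3′ along the gene, with motif matches in capitals.

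Trib3: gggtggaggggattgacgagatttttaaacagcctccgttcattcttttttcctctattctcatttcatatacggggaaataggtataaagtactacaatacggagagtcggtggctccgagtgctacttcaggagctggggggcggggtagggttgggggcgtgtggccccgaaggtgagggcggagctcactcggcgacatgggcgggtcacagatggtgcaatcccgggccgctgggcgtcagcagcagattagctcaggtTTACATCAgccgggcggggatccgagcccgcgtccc

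Chac1: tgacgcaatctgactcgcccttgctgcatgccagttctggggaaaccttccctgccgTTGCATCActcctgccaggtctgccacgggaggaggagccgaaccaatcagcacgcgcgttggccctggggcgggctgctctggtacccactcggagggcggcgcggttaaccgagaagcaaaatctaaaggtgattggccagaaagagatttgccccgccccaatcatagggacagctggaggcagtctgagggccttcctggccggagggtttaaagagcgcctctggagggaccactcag

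Atf3: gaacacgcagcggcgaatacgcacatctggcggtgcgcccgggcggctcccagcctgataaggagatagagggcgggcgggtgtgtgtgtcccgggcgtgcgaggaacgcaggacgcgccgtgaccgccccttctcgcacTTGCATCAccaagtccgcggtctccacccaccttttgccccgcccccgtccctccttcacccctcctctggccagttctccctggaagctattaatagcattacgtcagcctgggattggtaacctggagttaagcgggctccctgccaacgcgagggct

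Ppp1r15a: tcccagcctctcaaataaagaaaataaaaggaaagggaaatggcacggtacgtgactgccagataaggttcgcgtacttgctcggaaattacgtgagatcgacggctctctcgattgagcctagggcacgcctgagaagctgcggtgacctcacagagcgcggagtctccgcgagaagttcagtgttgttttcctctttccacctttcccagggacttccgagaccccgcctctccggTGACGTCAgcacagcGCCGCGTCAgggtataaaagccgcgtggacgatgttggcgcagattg

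In Chac1 and Atf3 the match was the same 8 bases, TTGCATCA, which read TGATGCAA on the other strand. Relative to the start it lay at -193 to -186 in Chac1 and at -110 to -103 in Atf3. In Trib3 the match was TTACATCA, from 14 to 21 bases after the start. In Ppp1r15a the cyclic AMP element lay at -12 to -5. An identical match stood in the promoter of Chac1, which rose, and of Atf3, whose groups overlapped. The windows of Atf4, Atf5, Ddit3 and Ddit4 held none of the 3 motifs, which says only that these letters are not in these windows.

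The closest relatives of the 10 genes were counted in the same fit. Of 15 family members in the table, 12 passed the filter. Of these, 4 rose, 2 fell and 6 were not called, beside 10.7% of all genes tested called higher and 11.2% lower. The median log2 fold change of the 12 was 0.12. Those that rose all encode C/EBP factors, the dimer partners of ATF4 and CHOP: Cebpg (0.53 ± 0.13), Cebpa (0.51 ± 0.13), Cebpb (0.46 ± 0.12) and Cebpd (0.42 ± 0.13, SE, edgeR adjusted p = 0.0128). The call of Cebpb was lost without control replicate 1 (adjusted p = 0.0687) or itaconate replicate 3 (0.0564), and that of Cebpd without control replicate 3 (0.0606) or itaconate replicate 3 (0.127). Without itaconate replicate 3, the number of relatives that rose was 2. Cebpe had 12, 4 and 53 counts in itaconate libraries and 21, 31 and 22 in control libraries, with itaconate replicate 3 far above the other libraries. Jdp2, the nearest relative of Atf3, had a log2 fold change of 0.19 ± 0.13 and was not called.

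**Figure D2:**
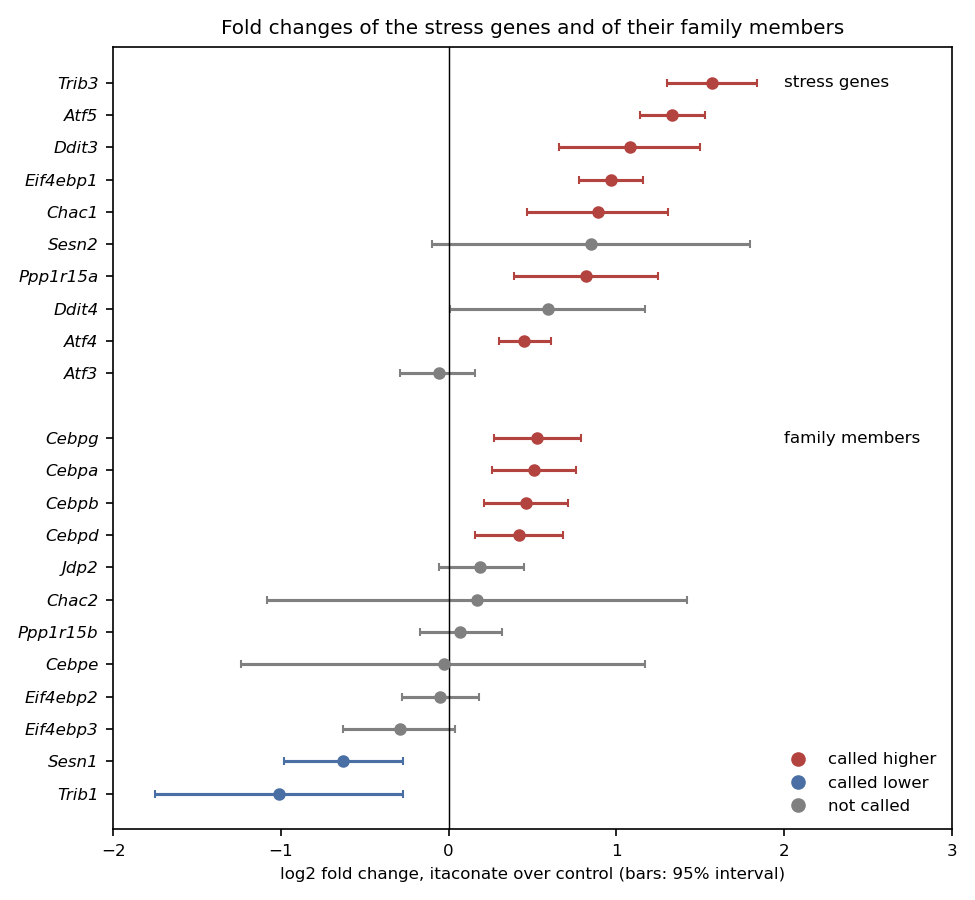
Log2 fold change, itaconate over control (x axis), with the 95% interval from the edgeR fit for the 10 stress genes (top) and 12 tested family members (bottom), red where called higher, blue where called lower and grey where not called. The values of the stress genes run from -0.06 to 1.57, and Sesn1 and Trib1 are the family members called lower.

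Shares within gene families set each stress gene beside its relatives. Sesn1, the sestrin 1 gene, fell to 27.5 ± 2.67 CPM in itaconate libraries, against 42.6 ± 2.61 CPM in control libraries (SD, n = 3). Its log2 fold change was -0.63 ± 0.18 (SE, edgeR adjusted p = 0.00648). Sesn2 took 19.2, 16.3 and 22.7% of sestrin counts in itaconate libraries and 7.78, 8.20 and 7.66% in control libraries, and Sesn3 had no count. Trib1, an adaptor gene for the COP1 ubiquitin ligase, had 43, 34 and 16 counts in itaconate libraries and 62, 68 and 71 in control libraries (log2 fold change -1.01 ± 0.37, edgeR adjusted p = 0.0424). That call was lost when control replicate 1 (adjusted p = 0.0687), 2 (0.0883) or 3 (0.154) was left out, without itaconate replicate 2 (0.0637) or 3 (0.221), with DESeq2 (0.053) and with no filter on low counts (0.051). Trib3 took 95.1% ± 2.44 of Tribbles counts in itaconate libraries and 76.6% ± 3.07 in control libraries (SD, n = 3).

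Eif4ebp2 and Eif4ebp3, the other 4E-BP genes, had log2 fold changes of -0.05 ± 0.12 and -0.29 ± 0.17 and were not called. Eif4ebp1 took 67.3, 64.3 and 68.1% of 4E-BP counts in itaconate libraries and 48.1, 49.3 and 47.5% in control libraries. Ppp1r15b, which encodes the constitutive partner of PP1 at eIF2, had 0.07 ± 0.12, with a 95% interval from -0.17 to 0.32 that ends below the lower bound for Ppp1r15a. Ppp1r15a took 20.4% ± 1.87 of the counts of the pair in itaconate libraries and 13.4% ± 1.02 in control libraries (SD, n = 3). Chac2 had 17, 19 and 13 counts in itaconate libraries and 15, 21 and 11 in control libraries, and Chac1 took 92.1% ± 0.956 of the counts of the pair in itaconate libraries and 87.6% ± 0.857 in control libraries. In all 5 families examined the share of the stress gene was higher in every itaconate library than in every control library. The levels of these 5 genes were separated in the same way, so the shares in part restate the levels. Among single tested genes such a separation was seen in 17.6%, and its frequency among other families was not counted. Shares were not computed for Atf4, Atf5, Atf3, Ddit3 or Ddit4 and their relatives. Of these, Atf3 and Ddit4 had groups that overlapped in level. Each exact two-sided permutation test gave p = 0.1, and 0.1 after adjustment over the 5 families, the smallest that 3 against 3 can give. Trib2 and Ddit4l had at most 4 counts in any library.

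**Figure D3:**
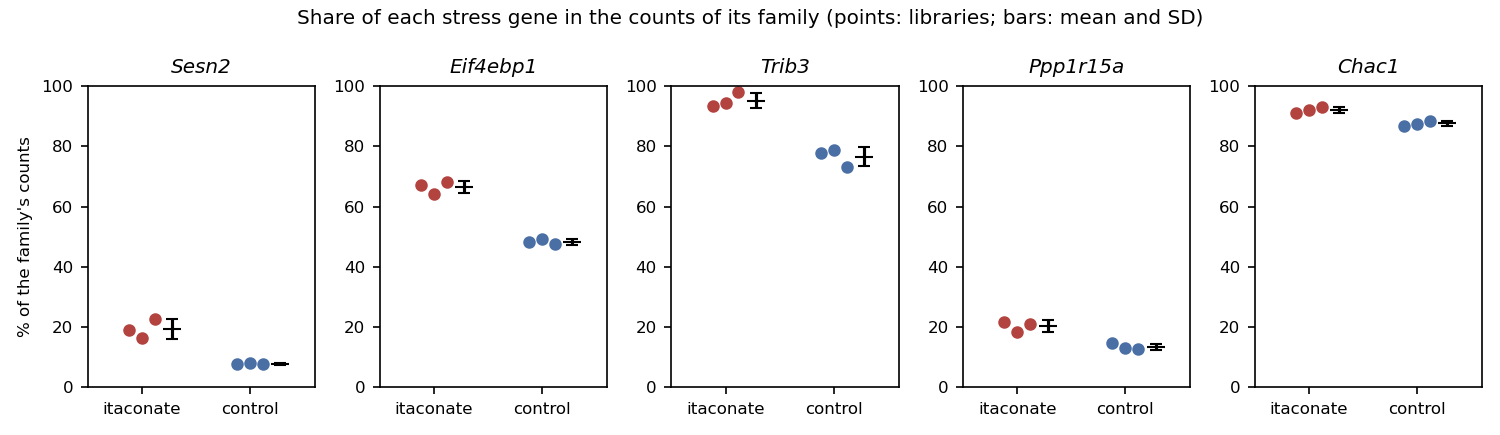
Percentage of a family's counts (y axis) taken by Sesn2, Eif4ebp1, Trib3, Ppp1r15a and Chac1 in 3 itaconate libraries (red, left) and 3 control libraries (blue, right), with mean and SD beside the points. In each panel the itaconate libraries lie above the control libraries, from a difference of 4.45 percentage points for Chac1 to 18.5 for Trib3.

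Other genes known as ATF4 targets, many of them for amino acid supply, were counted as effectors. Of 28 tested effector genes, 19 rose, 0 fell and 9 were not called, with a median log2 fold change of 0.66. The shares over all genes tested were 10.7% higher and 11.2% lower, with a median of -0.01. This list, too, was chosen with earlier results of these data known, so the contrast is descriptive only. No effector was lower at an unadjusted p under 0.05, and DESeq2 and limma-voom called none lower. The 3 with the smallest p were the cystine carrier gene Slc7a11, which NRF2 also induces (3.58 ± 0.13), the amino acid transporter heavy chain gene Slc3a2 (1.15 ± 0.09) and the asparagine synthetase gene Asns. Asns reached 313 ± 5.23 CPM in itaconate libraries, against 163 ± 6.79 CPM in control libraries (SD, n = 3, log2 fold change 0.95 ± 0.09, edgeR adjusted p = 3.38e-12). Among those not called were Psat1, Shmt2 and Slc38a2, with -0.06, -0.06 and -0.05, chosen after their values were seen.

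Of 20 genes for eIF2 kinases, eIF2, eIF2B and the PP1 catalytic subunits, 2 rose and 1 fell, with a median of 0.08, where 10.7% of all genes tested were called higher and 11.2% lower, so the share that rose was near that of all genes. Eif2s2, the eIF2 beta subunit gene, rose by 0.51 ± 0.07 and Eif2ak4, which encodes the amino acid sensing kinase GCN2, by 0.59 ± 0.15 (edgeR adjusted p = 0.00347). Eif2ak2, which encodes the interferon-inducible kinase PKR, fell (-0.65 ± 0.19, edgeR adjusted p = 0.0115). Leaving out control replicate 3 or itaconate replicate 1 ended that call (adjusted p = 0.115 for each). The kinase genes Eif2ak1 (HRI) and Eif2ak3 (PERK) were not called, with -0.23 ± 0.19 and 0.22 ± 0.31, chosen after their values were seen.

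In the list of the mitochondrial relay to HRI and of mitochondrial chaperones and proteases, 3 of 15 rose and 0 fell. Over all genes tested, 10.7% were called higher and 11.2% lower. The list had a median of 0.05, and 0 of its genes were lower at an unadjusted p under 0.05 or by DESeq2 or limma-voom. Those that rose were Afg3l2, a subunit gene of an inner membrane protease (1.29 ± 0.14, edgeR adjusted p = 8.64e-11), the matrix protease gene Lonp1 (0.63 ± 0.10) and Hspa9, the mitochondrial Hsp70 gene (0.41 ± 0.08). Oma1, which encodes a stress-activated inner membrane protease, had -0.11 ± 0.16 and was not called (chosen after its values were seen).

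Of 19 tested genes of the IRE1-XBP1 and ATF6 arms, 2 rose and 1 fell, with a median of 0.07. These are 10.5% higher and 5.26% lower, against 10.7% and 11.2% of all genes tested. The share that rose was thus near that of all genes. At an unadjusted p under 0.05 (edgeR), 5 genes of the list were higher and 1 lower, and the share of all genes at that threshold was not counted. Sel1l, of the ER degradation machinery, rose by 0.43 ± 0.09, and the disulfide isomerase gene Pdia6 by 0.26 ± 0.10 (edgeR adjusted p = 0.0485). The Pdia6 call was lost with DESeq2 (adjusted p = 0.0545), limma-voom (0.0507), library totals (0.126), upper-quartile scaling (0.0622) and no filter on low counts (0.0717), and in the fits without control replicate 1 (0.255), control replicate 3 (0.112) and itaconate replicates 1 (0.051), 2 (0.13) and 3 (0.118). Calr, which encodes the chaperone calreticulin, fell (-0.30 ± 0.08). Hspa5, which encodes the main ER chaperone BiP, had -0.08 ± 0.08 and was not called (chosen after its values were seen). Higher at the unadjusted threshold but not called were Atf6 (0.26 ± 0.11, edgeR adjusted p = 0.0891), Herpud1 (0.24 ± 0.11, 0.133) and Dnajb9 (0.93 ± 0.46, 0.151). These 3 were also chosen after their values were seen.

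Of 9 tested genes linked to CHOP in cell death and oxidation, 2 rose and 3 fell, with a median of -0.03. Of all genes tested, 10.7% were called higher and 11.2% lower. In this list Bcl2 rose (0.70 ± 0.18, edgeR adjusted p = 0.00328) and Txnip fell (-0.40 ± 0.11, 0.0118), both chosen after their values were seen. The ER oxidase gene Ero1l, a CHOP target and also a hypoxia target, rose by 1.06 ± 0.15, while Mcl1, an anti-apoptotic gene, fell (-0.55 ± 0.08), as did the pro-apoptotic gene Pmaip1 (-0.98 ± 0.19, edgeR adjusted p = 8.4e-05). The mTORC1 list had 1 of 25 tested genes higher and 0 lower with edgeR, with a median of 0.05; at an unadjusted p under 0.05, 2 were higher and 1 lower, and DESeq2 called 1 lower and limma-voom 0. The gene was Akt1s1, which encodes the mTORC1 inhibitor PRAS40 (0.64 ± 0.23, edgeR adjusted p = 0.0421). DESeq2 (adjusted p = 0.0526), scaling by library totals (0.0692) and omitting the filter on low counts (0.0584) ended the Akt1s1 call, as did leaving out replicate 2 (0.222) or 3 (0.0519) of the control group or replicate 2 (0.127) or 3 (0.152) of the itaconate group. Of 8 tested genes that act on ATF4 protein, edgeR called 0, with a median of -0.08. At an unadjusted p under 0.05, 3 were lower and 0 higher. For both lists, the share of all genes at that unadjusted threshold was not counted. The acetyltransferase gene Crebbp was nearest to a call (-0.29 ± 0.11, adjusted p = 0.0512) and was not called by DESeq2, which called 0 of the list. It was called lower by limma-voom (adjusted p = 0.0469), with library totals (0.0209), upper-quartile scaling (0.0445) or the stricter filter (0.04), and when control replicate 3 (0.043) or itaconate replicate 1 (0.0103) was left out. With library totals 2 genes of the list were called lower. The other genes lower at the unadjusted threshold were Egln2 (-0.38 ± 0.16, edgeR adjusted p = 0.0916) and Egln1 (-0.49 ± 0.23, 0.129). For both, every itaconate library lay below every control library, whereas the groups overlapped for Crebbp. Egln1 and Egln2 were chosen after their values were seen.

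**Figure D4:**
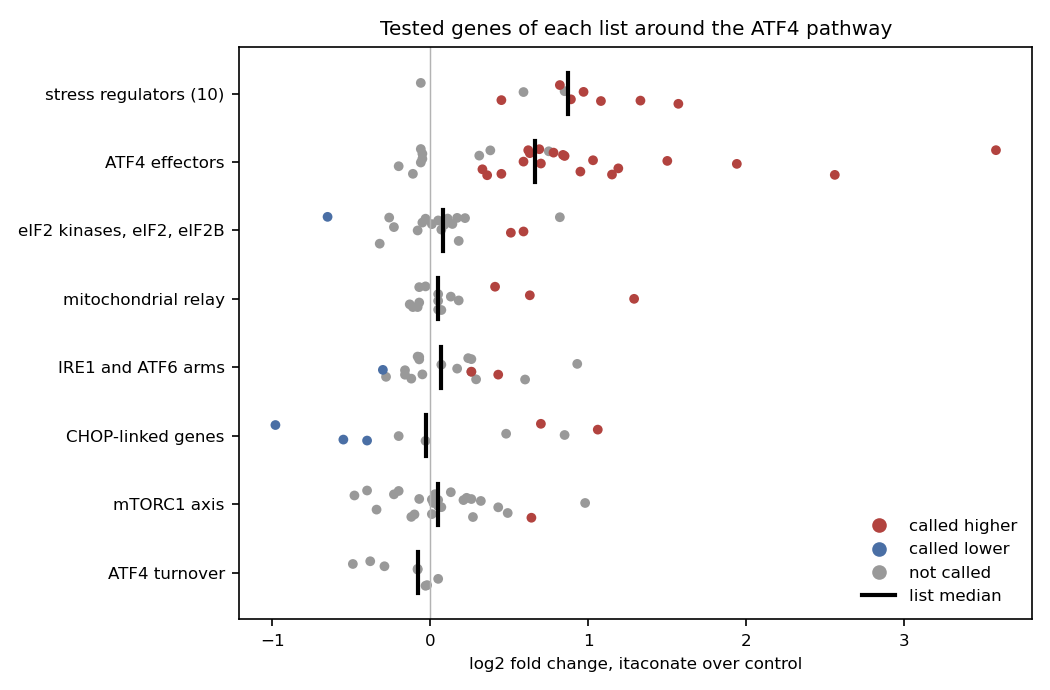
Log2 fold change, itaconate over control (x axis), of each tested gene (points) in the list of 10 stress regulators and in 7 lists around the ATF4 pathway (rows), red where called higher, blue where called lower and grey where not called, with the list median as a black bar. The medians are 0.87 for the stress regulators and 0.66 for the ATF4 effectors, and between -0.08 and 0.08 for the other 6 lists.

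The genes whose levels over the 6 libraries lay nearest to those of 2 of the factors were found by Euclidean distance of centred log2 CPM among 6261 candidates. Nearest to Atf4 were Hspa9 (distance 0.08), Ccdc107 (0.09) and Ticam1 (0.09), which encodes the Toll-like receptor adaptor TRIF. Nearest to Ddit3 were the proline synthesis gene Pycr1 (0.31), the reductase gene Ptgr1 (0.33) and the cytochrome gene Cyb5a (0.33). Their log2 fold changes ran from 0.41 for Hspa9 to 1.19 for Pycr1, and all 6 were called higher, a direction that choosing genes by likeness to Atf4 and Ddit3 fixes. The call of Ccdc107 was lost without control replicate 1 (adjusted p = 0.071) or itaconate replicate 2 (0.051) or 3 (0.0685), and that of Ticam1 without control replicate 1 (0.0918), 2 (0.0546) or 3 (0.0924) or itaconate replicate 2 (0.0711) or 3 (0.13), with library totals (0.0665) and with no filter on low counts (0.0577).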

How the data were processed

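Polyadenylated RNA of 6 RAW264.7 libraries was made with TRIzol and the Lexogen QuantSeq 3′ FWD kit, per the labels' protocols. The authors deposited raw, unnormalized counts for each gene symbol. STAR 2.7.5a, HTSeq 0.6.1, edgeR and mm10 are named, per the submitters' processing notes, while the sources used here state neither strand setting nor annotation. All 6 count columns were used.

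Genes were kept by edgeR's filterByExpr (minimum count 10, minimum total 15), which left 10636 of 35976 symbols, with 99.74% of counts. Libraries were scaled by TMM and compared by the two-sided quasi-likelihood test of edgeR (version 4.0.16, in R 4.3.3), with Benjamini-Hochberg adjustment over all genes tested. Calls needed an adjusted p under 0.05, and fold changes are itaconate over control. DESeq2 1.42.0, limma-voom (limma 3.58.1), other scalings and filters, a replicate block and leaving out each library were alternatives.

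The members and lists were chosen with earlier results of these data known. Besides all members and their family members, the text names from each list the 3 called genes with the smallest p (or, with none called, the 1 smallest), and the 3 genes of at least 20 CPM nearest to Atf4 and to Ddit3, without predicted genes. Other genes are said to be chosen after their values were seen. Reads carry no molecular identifiers, so floors cover counting error only. Promoters came from RefSeq (GRCm38.p6), exon overlaps and 3′ ends from the mouse annotation. In a search of 50-base stretches, the last 500 transcript bases of the 10 genes shared 0% with other genes.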

Additional observations from a re-analysis of the deposited data

How the results depend on the processing

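Under 13 alternatives, 7 of the 10 stress genes were called higher and 0 lower each time. Of 129 member values, 128 kept direction and side of the threshold, and the other was Atf3, at 0.02 (adjusted p = 0.955) without control replicate 2; the cause was not tested. Sesn2 could not be fitted under the stricter filter, which leaves it out. Log2 fold changes ran from 0.40 to 0.51 for Atf4, 1.18 to 1.44 for Atf5, -0.15 to 0.02 for Atf3, 0.95 to 1.25 for Ddit3, 1.48 to 1.64 for Trib3, 0.74 to 1.10 for Chac1, 0.70 to 0.95 for Ppp1r15a and 0.91 to 1.02 for Eif4ebp1. The adjusted p ran from 0.172 to 0.349 for Sesn2 and from 0.0715 to 0.466 for Ddit4. Calls over all genes ran from 882 to 1114 higher and 915 to 1429 lower, and no scaling moved the median of all genes past -0.06.

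Deviations of same-numbered libraries from their group means had correlations of -0.0135, 0.0171 and 0.038. Those of differently numbered libraries ran from -0.042 to 0.0279. With 3 libraries a group, these values cannot show whether same-numbered libraries were handled together. With the replicate block, 7 members were called higher and 0 lower, and 1087 genes higher and 1160 lower among all tested. Crebbp, not called without the block, was called lower (adjusted p = 0.0465).

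Without 1 library, share differences ran from 9.86 to 13.0 percentage points for Sesn2, 17.5 to 19.4 for Eif4ebp1, 16.7 to 19.6 for Trib3, 6.23 to 8.0 for Ppp1r15a and 3.98 to 4.94 for Chac1. Among other named genes, Cebpe turned positive when control replicate 2 (0.11) or itaconate replicate 1 (0.25) or 2 (0.45) was left out, within a range from -1.47 to 0.45. Ppp1r15b turned negative when control replicate 1 was left out, within a range from -0.10 to 0.19. Neither was called in the fit on all libraries. Of 492 values of 38 other named genes, 437 kept direction and side, 44 lost a call, 7 gained one and 4 changed sign. Sesn2 had 18 to 41 counts a library, and the part of depth in its missing call was not tested.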
